A study of Homo sapiens with 8 samples.

Results

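The genes described here are 10 chaperones, folding enzymes and regulators of the endoplasmic reticulum (ER) that are known targets of the transcription factors ATF6 and XBP1. They are HSPA5, HSP90B1, DNAJB9, HERPUD1, SDF2L1, XBP1, HYOU1, PDIA4, CRELD2 and MANF. They were taken as a fixed list of symbols, all 10 were found among the 20339 genes of the count table, and all 10 had more than 3 counts in every library. The question put to them was whether stress of the ER can be told from stress of amino acid supply in these cells.

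RNA was sequenced in 8 libraries, 1 per condition, from the ovarian cancer cell lines OVCAR3 and COV318. OVCAR3-MGPKO cells, a knock-out of Matrix Gla Protein (MGP) made with CRISPR-Cas9 guides to exon 1 and isolation of clones, were set against OVCAR3-CTR. COV318-MGP cells, which carried a lentiviral MGP cDNA and were selected with puromycin, were set against COV318-CTR with the empty vector. Each was grown adherent ("bulk", in serum) and as spheres in serum-free medium with growth factors, taken as enriched in ovarian cancer stem cells ("OCSC"). OVCAR3 cells were labelled passage 4 and COV318 cells passage 18, and the 2 lines were kept in different adherent media, so line, passage and medium cannot be told apart.

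Proteins of the secretory pathway fold in the ER with the help of the HSP70 chaperone HSPA5 (BiP), the HSP90 chaperone HSP90B1 (GRP94) and disulfide isomerases. When unfolded proteins accumulate, the sensors ATF6, IRE1 (the product of ERN1) and PERK (the product of EIF2AK3) start the unfolded protein response (UPR). ATF6 is cleaved to a transcription factor and IRE1 splices XBP1 mRNA, and both routes raise chaperone genes. PERK phosphorylates eIF2α and favours translation of ATF4, which raises DDIT3 (CHOP), TRIB3 and ASNS. Shortage of amino acids reaches ATF4 by another kinase, GCN2, without the ATF6 and XBP1 routes, so the chaperone genes are commonly read beside the ATF4 targets.

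The promoter stretches are shown because they hold the letters through which ATF6 and XBP1 are known to act. The window searched was 250 bases before to 50 bases after each start site in RefSeq (GRCh38.p14), on both strands. The ER stress response element (ERSE), CCAAT and CCACG with 9 bases between, was in 27 of 35116 human windows (0.0769%) and in 4 of the 10 genes, HSPA5, HSP90B1, XBP1 and CRELD2. ERSE-II, ATTGG and CCACG with 1 base between, was in 19 windows (0.0541%) and in 3 of the 10 genes, HERPUD1, SDF2L1 and HYOU1. The stretches follow 5′ to 3′ on the gene's strand with the element in capitals, in either orientation.
HSPA5 (ERSE, minus strand, chr9:125241383-125241439): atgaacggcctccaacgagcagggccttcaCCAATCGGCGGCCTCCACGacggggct
XBP1 (ERSE, minus strand, chr22:28800598-28800651): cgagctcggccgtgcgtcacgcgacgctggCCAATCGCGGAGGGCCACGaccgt
CRELD2 (ERSE, reverse orientation, plus strand, chr22:49918524-49918602): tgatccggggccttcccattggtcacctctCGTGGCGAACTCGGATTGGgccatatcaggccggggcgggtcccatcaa
HSP90B1 (ERSE, first site, plus strand, chr12:103930211-103930239): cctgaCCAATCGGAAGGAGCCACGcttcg
HSP90B1 (ERSE, second site, reverse orientation, plus strand, chr12:103930316-103930344): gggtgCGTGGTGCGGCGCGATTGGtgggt
HERPUD1 (ERSE-II, plus strand, chr16:56931995-56932065): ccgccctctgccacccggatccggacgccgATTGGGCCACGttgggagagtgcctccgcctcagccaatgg
SDF2L1 (ERSE-II, reverse orientation, plus strand, chr22:21642084-21642154): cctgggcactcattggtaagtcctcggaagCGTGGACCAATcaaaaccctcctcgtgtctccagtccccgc
HYOU1 (ERSE-II, site nearest the start, reverse orientation, minus strand, chr11:119057244-119057314): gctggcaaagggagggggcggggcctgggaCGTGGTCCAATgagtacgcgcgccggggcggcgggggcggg

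The stretches of HSPA5, XBP1, CRELD2, HERPUD1, SDF2L1 and HYOU1 lie outside annotated exons, and those of HSP90B1 lie inside an annotated exon in GENCODE 44. HYOU1 held a further ERSE-II, which overlapped the UPR element TGACGTGG, found in 256 windows (0.729%) and in no other of the 10 genes. No exact match to ERSE or ERSE-II was in the windows of DNAJB9, PDIA4 and MANF, which says only that these letters are not there. The amino acid response element TGATGNAAT, found in 348 windows (0.991%), was in 0 of the 10. It was also in 0 of 11 genes with a window in the PERK-ATF4-CHOP list. In the amino acid response list it was in 1 of 16, GARS1. Its absence therefore does not separate the 10 genes from ATF4 targets. Among 19 windows of other ER folding factors, ERSE was in CALR, CANX, ERO1B and PDIA6.

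Depth was 12294591 to 37393919 counts per library. With 1 library per condition, a ratio of 2 libraries has no replicate check and no p-value. Each ratio carries an exact 95% Clopper-Pearson interval, which covers counting error only and says nothing of the spread between cultures. Levels are normalized counts (counts divided by the library's median-of-ratios size factor), and a log2 fold change (log2FC) is computed on log2(normalized count + 1) and called past the fold at 1 or more in size. MGP had 40393 and 28694 counts in COV318-MGP bulk and OCSC, 1 and 0 in COV318-CTR, and 0 to 2 in all OVCAR3 libraries, so MGP does not check the OVCAR3 labels.

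Libraries standing apart bear on all comparisons. The libraries labelled COV318-MGP differed from COV318-CTR beyond MGP. Of 12 markers of ovarian carcinoma epithelium, 6 in bulk and 7 in OCSC were at or under 3 counts, against 0 in every other library. Against COV318-CTR, 0 of the 12 were past the fold upward and 11 downward in bulk, and 1 and 10 in OCSC. Their summed level was 2016 and 8493 normalized counts, against 51058 and 19227 in COV318-CTR and 140413 to 279821 in OVCAR3. In OCSC most of that sum was KRT18 (6886, against 3561 in COV318-CTR) and KRT8 (1407, against 158), both higher. KRT7 and PAX8 were at 0. The 5 measured mesothelial markers summed to 3.85 and 2.86, against 8137 and 4907 in COV318-CTR. Of 8 markers of the HEK293 lineage, 4 were higher and 2 lower in bulk, and of 7 compared in OCSC 5 were higher and 1 lower. Over all genes compared, 24.5% were past the fold upward and 26.3% downward in bulk, and 27.0% and 27.3% in OCSC. The summed level of the HEK293 markers was 4728 and 4630, against 12849 and 6521 in COV318-CTR. Most of the COV318-CTR sum was DPPA4, at 10568 in bulk and 5371 in OCSC, against 1.10 and 0 in COV318-MGP. The lower sum therefore does not describe the other markers of that list. NEFL stood at 1410 and 1227 normalized counts in COV318-MGP and at 0 in COV318-CTR. Pearson's r of log2 levels over 20339 genes, given as a description, was 0.747 to 0.757 between COV318-MGP and COV318-CTR. It was 0.771 to 0.786 between OVCAR3 and COV318-MGP and 0.798 to 0.806 between OVCAR3 and COV318-CTR. No other library carries the COV318-MGP condition, so these results cannot be given without them, and the part of this difference in the chaperone results was not tested. The OVCAR3-CTR bulk library stood apart in the ATF4 genes, as given with its results.

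Levels of the 10 genes spanned a wide range. Per length, over the merged exons of each gene, PDIA4 was the highest in every library, at 85.7 to 374 CPM per kilobase (CPM being the count scaled to a common library total). This order depends on the merged exon length, 3298 bases for PDIA4 and 13092 for HSP90B1. In normalized counts HSP90B1 was above PDIA4 in every library, at 12711 to 42966 against 5681 to 20711. The scale per length therefore does not show which gene had the most mRNA. HSP90B1 reached 48.3 to 173, HSPA5 30.6 to 176 and XBP1 49.6 to 106 on the same scale. MANF was the fifth in every library at 22.3 to 72.2. CRELD2 stood at 1.71 to 9.93 and SDF2L1 at 3.69 to 23.9. Together the 10 genes took 0.145% of all counts in OVCAR3-CTR bulk, 0.196% to 0.251% in the other OVCAR3 libraries, 0.287% and 0.367% in COV318-CTR OCSC and bulk, and 0.476% and 0.503% in COV318-MGP bulk and OCSC.

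**Figure D1:**
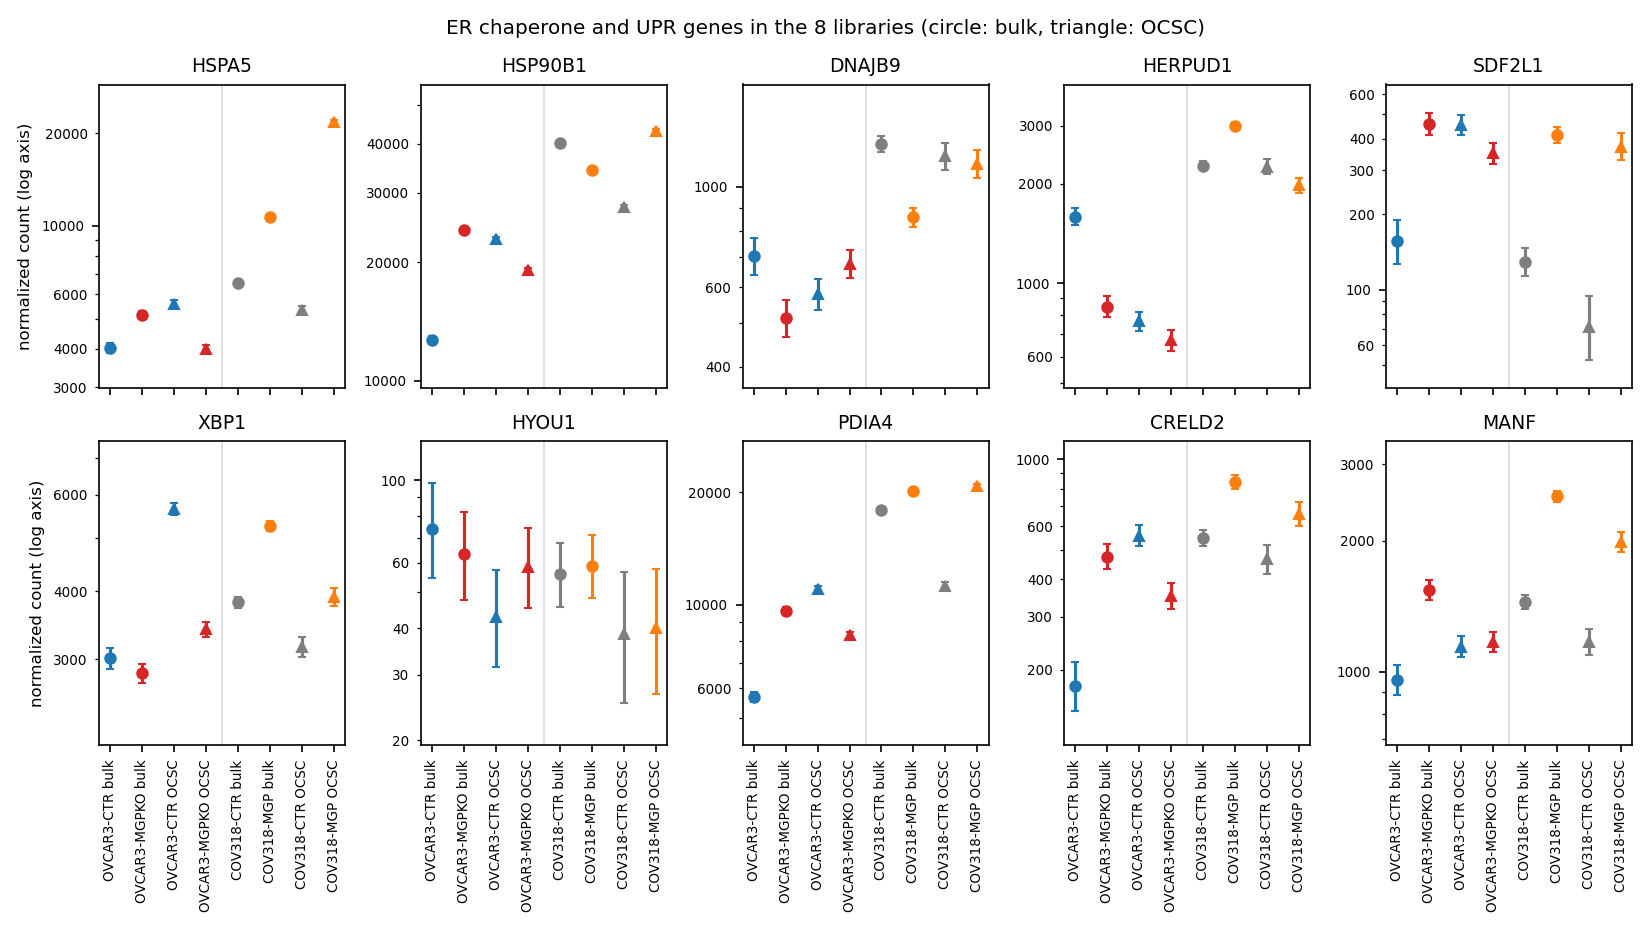
Normalized counts (log axis, scaled to each panel) of the 10 ER chaperone and UPR genes in the 8 libraries, with circles for bulk and triangles for OCSC and bars for the 95% Poisson interval of the count. HSPA5 reaches 21778 in COV318-MGP OCSC, while HSP90B1, PDIA4, CRELD2 and MANF have their lowest point in OVCAR3-CTR bulk.

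Among the chaperones, HSPA5, the HSP70 of the ER lumen and the partner that holds the sensors inactive, stood in OVCAR3 at 4015 normalized counts in CTR bulk, 5147 in MGPKO bulk, 5593 in CTR OCSC and 3990 in MGPKO OCSC. Its COV318 levels were 6522 in CTR bulk, 10718 in MGP bulk, 5338 in CTR OCSC and 21778 in MGP OCSC. The 2 COV318-MGP libraries were above the other 6. The 2 lowest libraries, OVCAR3-CTR bulk and OVCAR3-MGPKO OCSC, could not be separated by counting error.

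HSP90B1, the HSP90 of the ER lumen that folds integrins and Toll-like receptors, stood in OVCAR3 at 12711 normalized counts in CTR bulk, 24171 in MGPKO bulk, 22935 in CTR OCSC and 19130 in MGPKO OCSC. The COV318 libraries had 40044 in CTR bulk, 34239 in MGP bulk, 27589 in CTR OCSC and 42966 in MGP OCSC. All COV318 libraries were above all OVCAR3 libraries, and OVCAR3-CTR bulk was the lowest. Its exons share 6.95% of their bases with genes on the other strand, and its pseudogene HSP90B2P held 16 to 106 counts, so a small part of its reads could be assigned otherwise.

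HYOU1 (GRP170), the nucleotide exchange factor of HSPA5, stood at 74.0 normalized counts in OVCAR3-CTR bulk, 63.2 in MGPKO bulk, 42.9 in CTR OCSC and 58.6 in MGPKO OCSC. In COV318 it stood at 56.0 in CTR bulk, 58.8 in MGP bulk, 38.6 in CTR OCSC and 40.1 in MGP OCSC. None of the 7 neighbouring pairs in the order of its levels differed beyond counting error. These 26 to 107 counts were at most 0.540 CPM per kilobase, and adjacent genes were also counted low. Over the 8 libraries RPS25, a ribosomal protein gene, had 5 to 57 counts, SLC37A4 3 to 85 and VPS11 2 to 13, whereas DPAGT1, farther along the chromosome, had 124 to 1411. HYOU1 is therefore given as uncertain, and the cause was not tested.

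SDF2L1, a subunit of ER chaperone complexes with HSPA5, had the widest span of the 10, 6.43-fold. In OVCAR3 it stood at 156 normalized counts in CTR bulk, 458 in MGPKO bulk, 453 in CTR OCSC and 350 in MGPKO OCSC. Its COV318 levels were 129 in CTR bulk, 415 in MGP bulk, 71.3 in CTR OCSC (48 counts) and 372 in MGP OCSC. Libraries fell into an upper set of 5, whose neighbours in the order did not differ beyond counting error, and a lower set of both COV318-CTR libraries and OVCAR3-CTR bulk. Libraries farther apart within a set did differ beyond counting error. OVCAR3-MGPKO OCSC was below OVCAR3-MGPKO bulk (log2FC -0.39, interval -0.59 to -0.19) and OVCAR3-CTR OCSC (-0.37, interval -0.57 to -0.18). In the lower set COV318-CTR OCSC was below COV318-CTR bulk (-0.84, interval -1.33 to -0.40).

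DNAJB9 (ERdj4), a J-domain co-chaperone of HSPA5 and a classic XBP1 target, ran differently. It stood in OVCAR3 at 702 normalized counts in CTR bulk, 512 in MGPKO bulk, 579 in CTR OCSC and 677 in MGPKO OCSC. The COV318 libraries had 1244 in CTR bulk, 856 in MGP bulk, 1168 in CTR OCSC and 1122 in MGP OCSC. COV318-MGP bulk, which was second for HSPA5, was the lowest COV318 library for DNAJB9.

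PDIA4 (ERp72), a protein disulfide isomerase, stood in OVCAR3 at 5681 normalized counts in CTR bulk, 9659 in MGPKO bulk, 11008 in CTR OCSC and 8292 in MGPKO OCSC. In COV318 it stood at 17898 in CTR bulk, 20205 in MGP bulk, 11233 in CTR OCSC and 20711 in MGP OCSC. OVCAR3-CTR bulk was the lowest library. COV318-CTR OCSC and OVCAR3-CTR OCSC could not be separated.

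CRELD2, a secreted cysteine-rich protein with isomerase-like activity, stood in OVCAR3 at 177 normalized counts in CTR bulk, 476 in MGPKO bulk, 558 in CTR OCSC and 352 in MGPKO OCSC. Its COV318 levels were 548 in CTR bulk, 841 in MGP bulk, 467 in CTR OCSC and 659 in MGP OCSC. OVCAR3-CTR bulk was below the other 7 libraries, and 3.25% of the exon bases of CRELD2 are shared with ALG12 on the other strand.

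MANF, a secreted ER-stress-induced factor that binds HSPA5, stood in OVCAR3 at 958 normalized counts in CTR bulk, 1541 in MGPKO bulk, 1143 in CTR OCSC and 1172 in MGPKO OCSC. The COV318 libraries had 1446 in CTR bulk, 2533 in MGP bulk, 1173 in CTR OCSC and 1984 in MGP OCSC. Both COV318-MGP libraries were above the other 6 for MANF, and likewise for HSPA5, PDIA4 and CRELD2. The share of all genes with this order was not counted. MANF lay nearest to the mean profile of the 10 genes, at a root mean square distance of 0.16 on the log2 scale, and SDF2L1 farthest, at 0.90.

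HERPUD1, a membrane factor of ER-associated degradation (ERAD), stood in OVCAR3 at 1593 normalized counts in CTR bulk, 849 in MGPKO bulk, 766 in CTR OCSC and 671 in MGPKO OCSC. In COV318 it stood at 2270 in CTR bulk, 2996 in MGP bulk, 2257 in CTR OCSC and 1978 in MGP OCSC. OVCAR3-CTR bulk was the highest OVCAR3 library for HERPUD1, whereas it was the lowest for SDF2L1, the other well-counted gene with an ERSE-II.

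XBP1, whose mRNA is the substrate of IRE1, stood in OVCAR3 at 3016 normalized counts in CTR bulk, 2830 in MGPKO bulk, 5642 in CTR OCSC and 3409 in MGPKO OCSC. Its COV318 levels were 3818 in CTR bulk, 5263 in MGP bulk, 3159 in CTR OCSC and 3904 in MGP OCSC. OVCAR3-CTR OCSC was the highest library on this scale, whereas per length in CPM per kilobase COV318-MGP bulk was, at 106 against 88.1. Counts per gene do not separate spliced from unspliced XBP1, so they do not read IRE1 activity.

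In OVCAR3 bulk cells, MGPKO had higher SDF2L1, CRELD2, HSP90B1, PDIA4 and MANF than CTR and lower HERPUD1 and DNAJB9. Past the fold were SDF2L1 (log2FC 1.55, interval 1.24 to 1.89) and CRELD2 (1.42, interval 1.12 to 1.73). That is 2 of 10 higher and 0 of 10 lower, where 15.1% of all 17501 genes compared were higher and 9% lower. HSP90B1 was 1.90-fold higher (log2FC 0.93, and 1.07 with CPM, which makes 3 of 10 higher), PDIA4 1.70-fold (0.77) and MANF 1.61-fold (0.69). CPM moved all genes the same way: of those past the fold, 70.2% were higher, against 62.6% with the size factors. HERPUD1 had a log2FC of -0.91 (interval -1.05 to -0.77) and DNAJB9 of -0.45. The median of the 10 genes was 0.52, beside 0.03 over all genes.

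All of these values use the OVCAR3-CTR bulk library, which stood apart from the other OVCAR3 libraries. SDF2L1 was 156 normalized counts there and 350 to 458 in the other 3 OVCAR3 libraries, and CRELD2 was 177 there and 352 to 558 in the others. Of the 10 genes, 5 were below the other 3 OVCAR3 libraries in it and 3 were above, where 33.4% of 13075 well-counted genes (a mean of at least 50 normalized counts) were below and 29.6% above. The 3 that were above were HERPUD1, DNAJB9 and HYOU1, of which DNAJB9 and HYOU1 were within counting error of the next library.

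In the same library the ATF4 genes were very high. All 11 well-counted genes of the PERK-ATF4-CHOP list and all 19 of the amino acid response list were above the other 3 OVCAR3 libraries. TRIB3, a pseudokinase induced by ATF4, stood at 12433 normalized counts against 484 to 1180. DDIT3 stood at 3335 against 326 to 693, ATF3 at 2970 against 148 to 316, PPP1R15A at 5577 against 702 to 1055 and CHAC1 at 934 against 28 to 215. ATF4 itself stood at 11776 against 3768 to 4964. Within the library, counts of TRIB3 were 3.1 times those of HSPA5 (interval 2.96 to 3.24), and 0.0154 to 0.229 times in the other 7.

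In OVCAR3-MGPKO bulk against CTR, 12 of 13 genes of the PERK-ATF4-CHOP list and 17 of 20 of the amino acid response list were past the fold downward, and 0 of either upward. Their medians were -2.27 and -1.48. The largest were ATF3 (-4.27), DDIT4 (-3.83) and TRIB3 (-3.40), and among amino acid genes CTH (-3.50), ALDH1L2 (-2.41) and MTHFD2 (-2.16), enzymes of transsulfuration and of mitochondrial folate metabolism. ASNS, asparagine synthetase, had a log2FC of -1.39 but shares 49.3% of its exon bases with a gene on the same strand. Of the sensors, ERN1 had -2.34 and ATF6 -1.07, whereas EIF2AK3 had 0.86. The lectin chaperone CALR had 1.91, the isomerase PDIA6 0.85 and the oxidase ERO1B 0.97, and the median of 20 other ER folding factors was 0.29 with 1 higher and 1 lower. In the transport list KDELR3 (2.26), SEC24D (2.07) and SPCS3 (1.01) were past the fold, and in cytosolic heat shock HSPB1 (1.80), HSPA8 (1.79) and BAG3 (1.02) were among 5 of 13 higher. None of 17 ERAD genes was past the fold. HERPUD2 (-0.83), SEL1L (-0.81) and UBE2J1 (-0.76) were the largest among those with at least 50 normalized counts in a library of the pair.

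**Figure D2:**
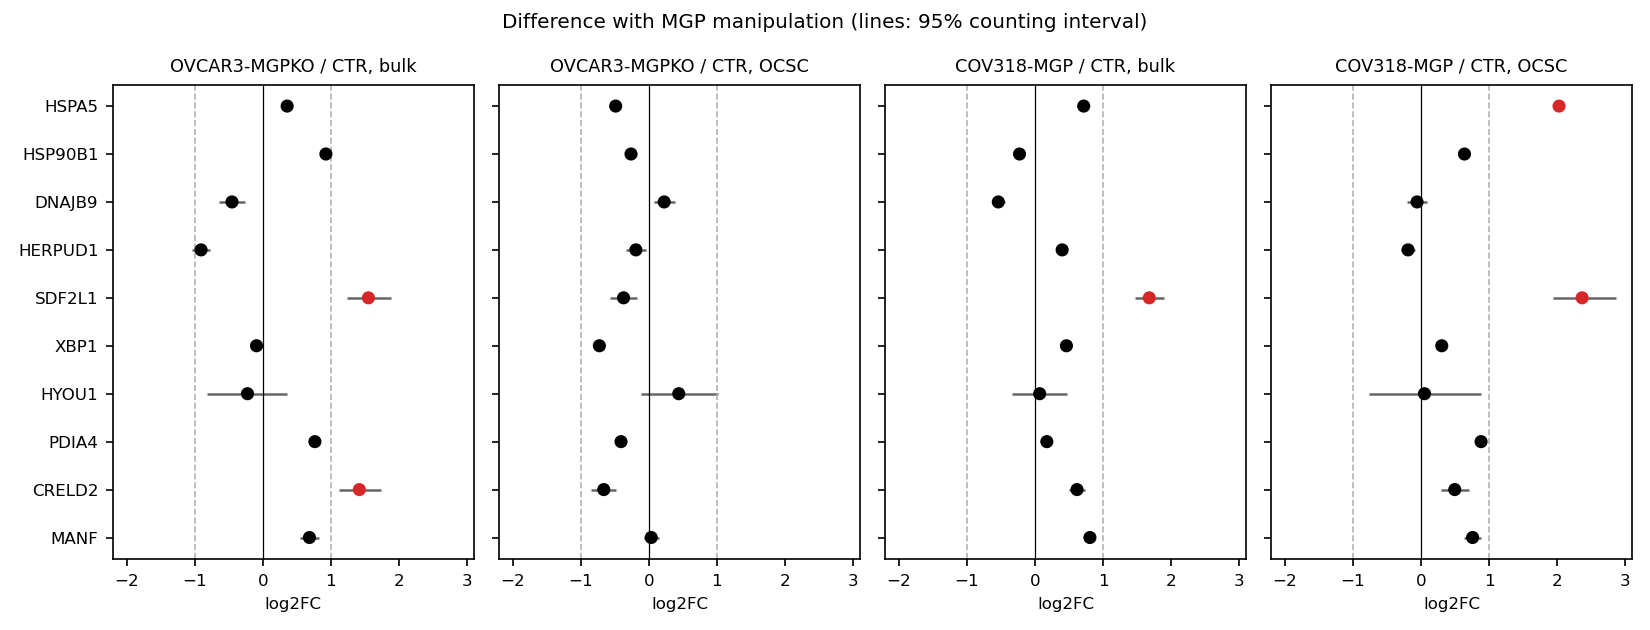
log2FC of the 10 genes for MGP-manipulated over control cells in 4 comparisons, with lines for the 95% counting interval, dashed lines at 1 and -1 and red points at 1 or more. SDF2L1 is past the fold in 3 of the 4 panels, and no gene is in OVCAR3-MGPKO OCSC.

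In OVCAR3 OCSC, 7 of the 10 genes had a value below 0 for MGPKO against CTR and 3 above, where 49.7% of all genes were above. No gene was past the fold in either direction, where 9.17% of all 17545 genes compared were higher and 5.69% lower. XBP1 had a log2FC of -0.73 (interval -0.79 to -0.67), CRELD2 -0.66, HSPA5 -0.49, PDIA4 -0.41 and SDF2L1 -0.37. DNAJB9 had 0.23 (interval 0.07 to 0.38). HYOU1 had 0.44 (interval -0.11 to 1.02) and MANF 0.03 (interval -0.08 to 0.15), and both intervals span no change. The median of the 10 was -0.32, beside 0.00 over all genes. The PERK-ATF4-CHOP list had a median of 0.04, with ATF3 (-1.09) past the fold, CHAC1 at 1.0 just under it and DDIT3 at 0.28. The amino acid response list had -0.27, with CTH (-1.51) and SLC7A5 (-1.34), a subunit of the leucine transporter, lower, and ASNS (1.32) higher on very few counts. No gene of the other ER folding, ERAD, transport or heat shock lists was past the fold here. The largest in each were DNAJB11 (-0.51), DERL1 (-0.73), SPCS3 (0.62) and HSP90AA1 (-0.69).

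In COV318 bulk cells, MGP had higher SDF2L1, MANF, HSPA5 and CRELD2 than CTR and lower DNAJB9. Only SDF2L1 was past the fold, at a log2FC of 1.68 (interval 1.48 to 1.90), which is 1 of 10 higher and 0 lower, where 24.5% of all 19682 genes compared were higher and 26.3% lower. MANF was 1.75-fold higher (0.81), HSPA5 1.64-fold (0.72) and CRELD2 1.54-fold (0.62). With CPM HSPA5 (1.01) and MANF (1.10) were also past the fold, which makes 3 of 10 higher. CPM moved all genes the same way: of those past the fold, 57.3% were higher, against 48.2% with the size factors. XBP1 had 0.46 and HERPUD1 0.40. DNAJB9 had -0.54 and HSP90B1 -0.23, the latter 0.07 with CPM. The median of the 10 was 0.43, beside -0.04 over all genes.

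The other ER genes of COV318 bulk cells did not share one direction. The median of 20 other ER folding factors was -0.34, with CALR at -1.78, the collagen chaperone SERPINH1 at -1.07 and ERO1B at 3.03. In ERAD SELENOS (1.26) was higher and HERPUD2 (-1.20) lower. In transport SEC61G had -1.16, TRAM1 0.83 and KDELR1 0.77. ERN1 was higher (1.91), while ATF6 had -0.56 and EIF2AK3 -0.45. Of the PERK-ATF4-CHOP list 7 of 13 were higher and 2 lower, with a median of 1.12 (0.88 with counts at or under 3 set to 3). NUPR1 (3.54), DDIT4 (3.23), CHAC1 (1.42) and TRIB3 (1.12) were higher, CEBPB (-2.81) and PPP1R15A (-1.41) lower, and DDIT3 had -0.47. The amino acid response list had 8 of 20 higher and 0 lower, with ALDH1L2 (4.86), the cystine transporter SLC7A11 (2.38) and STC2 (2.26) largest. HSPA1B (2.16), whose near-identical copy HSPA1A can share its reads, DNAJB1 (-1.61) and HSPA8 (-1.09) were the largest in heat shock.

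In COV318 OCSC, MGP had 4.08 times the HSPA5 and 5.22 times the SDF2L1 of CTR. Their log2FC was 2.03 (interval 1.98 to 2.08) and 2.37 (interval 1.93 to 2.86), which is 2 of 10 higher and 0 lower, where 27.0% of all 18842 genes compared were higher and 27.3% lower. PDIA4 was 1.84-fold higher (0.88), MANF 1.69-fold (0.76), HSP90B1 1.56-fold (0.64) and CRELD2 1.41-fold (0.50). XBP1 had 0.31. HERPUD1 had -0.19, and DNAJB9 had -0.06 with an interval of -0.20 to 0.09. The median of the 10 was 0.57, beside 0.00 over all genes.

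The stress genes of this pair were mixed. ATF3 (4.12), DDIT4 (4.39), BBC3 (4.91) and PPP1R15A (2.56) were higher, whereas DDIT3 (-1.36) and TRIB3 (-0.89) had negative values and CHAC1 had -0.09. ATF4 had 1.48. The list counted 6 of 12 genes higher and 3 lower. The amino acid response list had 8 of 20 higher and 3 lower, led by ALDH1L2 (5.01), PHGDH (2.68) and STC2 (2.00). ERN1 (1.76), CREB3L2 (1.47) and MBTPS2 (1.22), a protease that acts on ATF6, were among 4 of 8 sensor genes higher, while ATF6 had -0.71 and EIF2AK3 -0.52. In folding ERO1B (2.83) and FKBP14 (1.31) were higher and DNAJB11 (-1.25) and CALR (-1.23) lower. In ERAD FAM8A1 (1.21) and SELENOS (1.16) were higher, and in transport KDELR1 (1.45), KDELR3 (1.17) and TRAM1 (1.14). HSPB1 (2.42), HSPA1B (2.16) and HSP90AA1 (1.32) were higher in heat shock.

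HSPA5 and HSP90B1 did not move in proportion in COV318. Counts of HSPA5 were 0.163 times those of HSP90B1 in COV318-CTR bulk (interval 0.160 to 0.166) and 0.193 in COV318-CTR OCSC (0.187 to 0.201). With MGP the ratio was 0.507 in OCSC (0.497 to 0.517) and 0.313 in bulk (0.308 to 0.318). In OVCAR3 it was 0.209 to 0.244 in the 3 libraries other than CTR bulk and 0.316 in CTR bulk. These ratios do not depend on the size factors. Counts of HERPUD1 per HSPA5 count were 0.348 and 0.423 in COV318-CTR bulk and OCSC, 0.0908 in OCSC and 0.280 in bulk of COV318-MGP. Counts of DNAJB9 per HSPA5 count followed the same order of lines, 0.191 and 0.219 in COV318-CTR against 0.0799 and 0.0515 in COV318-MGP.

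Averaged over the 10 genes, each centred over the 8 libraries on the log2 scale, the level was lowest in OVCAR3-CTR bulk (-0.54) and highest in COV318-MGP bulk (0.60) and OCSC (0.53). The mean of 11 PERK-ATF4-CHOP genes on the same scale was 2.12 in OVCAR3-CTR bulk and at most 0.43 elsewhere. The mean of 19 amino acid response genes was 1.59 in OVCAR3-CTR bulk and at most 0.57 elsewhere, the latter in COV318-MGP bulk.

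**Figure D3:**
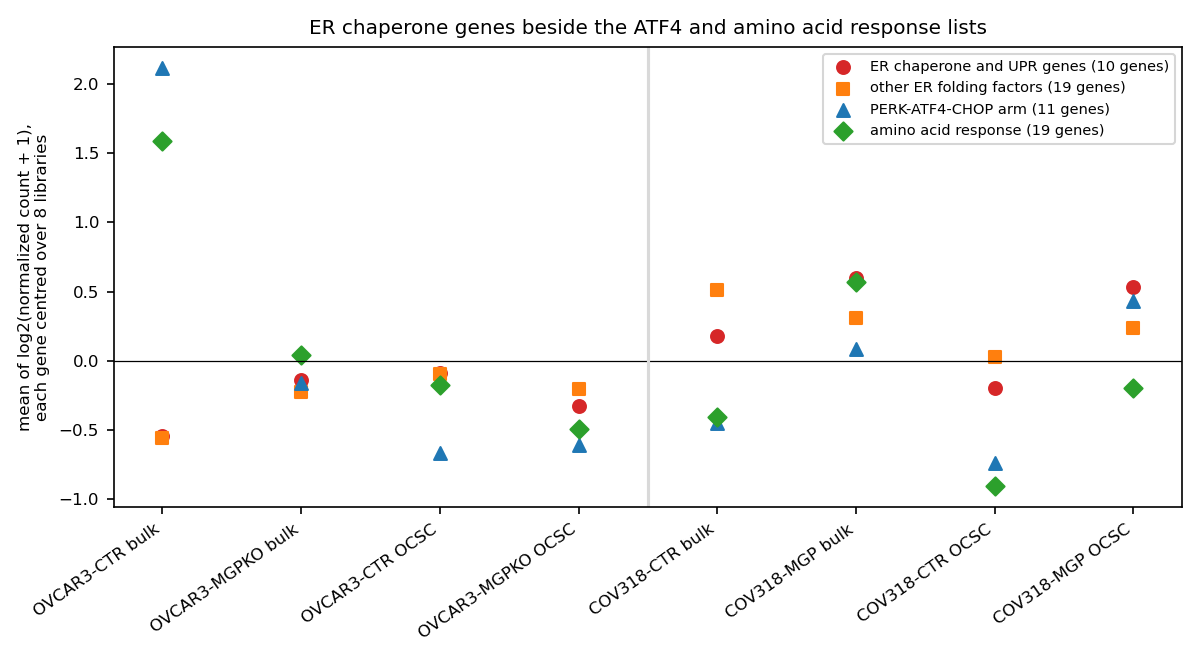
Mean of log2(normalized count + 1), each gene centred over the 8 libraries, for the 10 ER chaperone and UPR genes, other ER folding factors, the PERK-ATF4-CHOP arm and the amino acid response, one column of points per library. In OVCAR3-CTR bulk the ATF4 lists stand at 2.12 and 1.59 and both ER folding lists below -0.5.

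Between spheres and adherent cells, the 10 genes were compared in 4 cell populations, whose libraries are also those of the MGP comparisons. In OVCAR3-CTR, OCSC had higher CRELD2 (log2FC 1.65, interval 1.36 to 1.96) and SDF2L1 (1.53, interval 1.23 to 1.86) and lower HERPUD1 (-1.05, interval -1.19 to -0.92) than bulk. This is 2 of 10 higher and 1 of 10 lower, where 14.3% of all genes were higher and 13.2% lower. PDIA4 (0.95), XBP1 (0.90) and HSP90B1 (0.85) were under the fold, and HYOU1 had -0.77 (interval -1.40 to -0.17). The median of the 10 was 0.66, and it rests on the OVCAR3-CTR bulk library described above. The PERK-ATF4-CHOP list had 11 of 13 lower and a median of -2.99, led by CHAC1 (-5.01), TRIB3 (-4.68) and NUPR1 (-4.28), and the amino acid list 17 of 20 lower and -1.71, led by ASNS (-4.00), ALDH1L2 (-3.96) and SLC7A5 (-3.41). ERN1 had -2.63 and CALR 1.96.

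In OVCAR3-MGPKO, no gene of the 10 was past the fold, where 8.33% of all genes were higher in OCSC and 10.8% lower. MANF had -0.40, CRELD2 -0.43, SDF2L1 -0.39 and HSPA5 -0.37, while DNAJB9 had 0.40 and XBP1 0.27. The median was -0.34. CHAC1 (-1.90), TRIB3 (-0.95) and DDIT3 (-0.80) were largest in the PERK-ATF4-CHOP list and SLC7A5 (-2.68) in the amino acid list. KDELR3 (-2.08) was the only transport gene past the fold.

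In COV318-CTR, all 10 values were below 0 in OCSC against bulk, though with CPM DNAJB9 (0.05) and HERPUD1 (0.13) were above it. Of all 18301 genes compared, 47.5% had a value above 0. None of the 10 was past the fold, where 10.9% of all genes were higher and 10.1% lower. The values ran from -0.84 for SDF2L1 (interval -1.33 to -0.40) and -0.67 for PDIA4 to -0.01 for HERPUD1. The intervals of HERPUD1, DNAJB9 and HYOU1 span no change, and the median was -0.30. Of 20 other ER folding factors 3 had a value above 0 and 2 were past the fold downward, FKBP14 (-1.71) and SERPINH1 (-1.11), and of 21 transport genes 2 had a value above 0. Of the ATF4 genes PPP1R15A had -1.40 and ATF3 -1.06, and TRIB3 had 1.0.

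In COV318-MGP, HSPA5 was 2.03-fold higher in OCSC than in bulk (log2FC 1.02, interval 0.99 to 1.05), 1 of 10 higher and 0 lower. Of all genes 10.3% were higher and 9.36% lower, and 52.3% of the genes past the fold were higher against 35.3% with CPM. HSPA5 lay close to the fold, and under CPM, TMM factors or size factors from the 2 libraries alone it was under it. DNAJB9 (0.39) and HSP90B1 (0.33) were above 0, whereas HERPUD1 (-0.60), XBP1 (-0.43), CRELD2 (-0.35) and MANF (-0.35) were below. The median was -0.25. The PERK-ATF4-CHOP list had 4 of 13 higher and 4 lower, with NUPR1 (-4.60), CHAC1 (-2.15) and TRIB3 (-1.01) lower and DDIT3 at -0.26. PPP1R15A (2.57), ATF3 (2.38) and the heat shock genes DNAJB1 (2.28) and HSPA1B (1.90) were higher, and SLC7A11 (-3.22), STC2 (-1.39) and SLC38A2 (-1.16) lower.

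**Figure D4:**
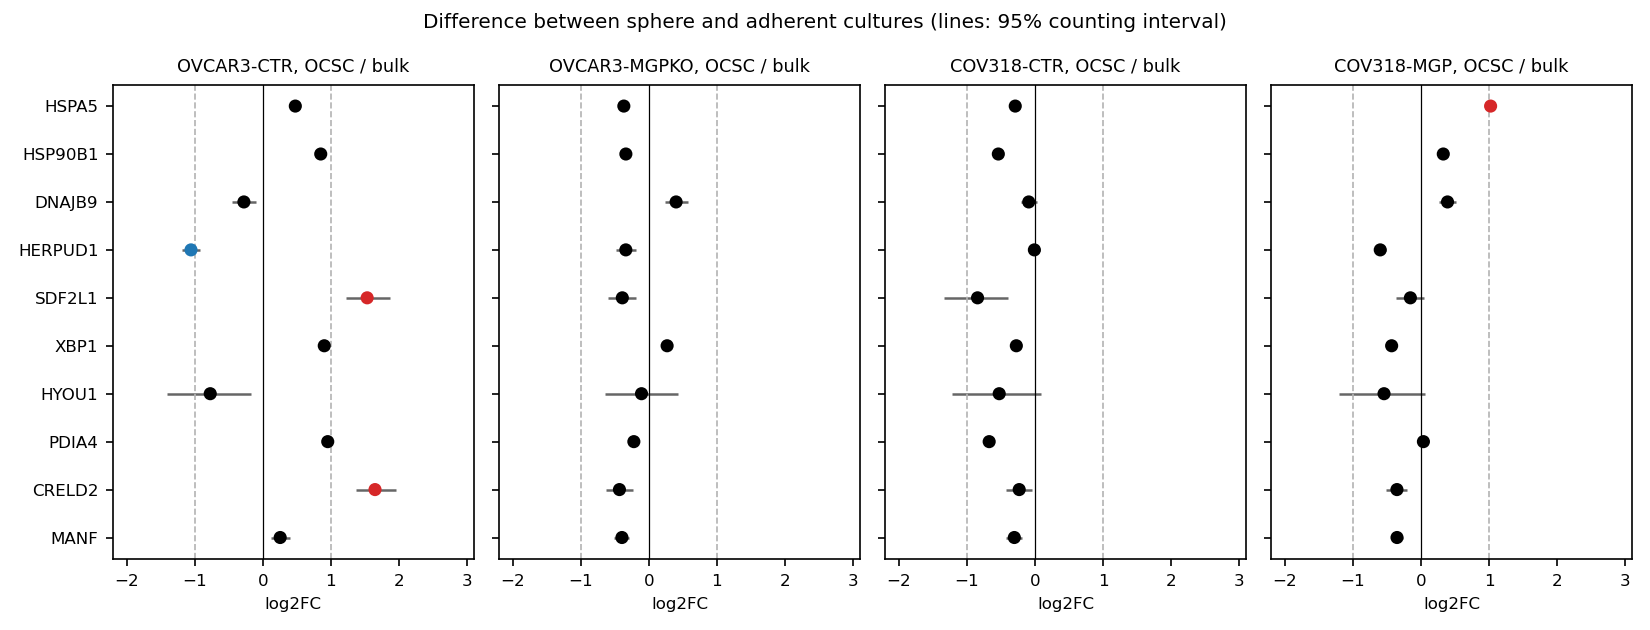
log2FC of the 10 genes for OCSC over bulk in the 4 cell populations, with lines for the 95% counting interval, dashed lines at 1 and -1, red points at 1 or more and blue points at -1 or less. SDF2L1 and CRELD2 are past the fold upward and HERPUD1 downward in OVCAR3-CTR, HSPA5 is at 1.02 in COV318-MGP, and no gene is in the other 2 panels.

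Between the control lines, OVCAR3-CTR bulk had less HSP90B1 (log2FC -1.66), PDIA4 (-1.66) and CRELD2 (-1.62) than COV318-CTR bulk. This is 0 of 10 higher and 3 of 10 lower, where 24.8% of all genes were higher and 29.4% lower. In OCSC these 3 genes had -0.27, -0.03 and 0.26. There SDF2L1 was 6.35-fold higher in OVCAR3 (2.65, interval 2.24 to 3.13) and HERPUD1 (-1.56) and DNAJB9 (-1.01, interval -1.17 to -0.86) were lower, the latter under the fold with TMM factors (-0.96) and with size factors from the 2 libraries alone (-0.94). That is 1 of 10 higher and 2 lower, beside 26.9% and 29.0% of all genes. The medians of the 10 were -0.65 in bulk and 0.02 in OCSC (-0.19 with CPM). HERPUD1 in the 3 OVCAR3 libraries other than CTR bulk was 671 to 849 normalized counts, and in the 4 COV318 libraries 1978 to 2996, with OVCAR3-CTR bulk between them at 1593. DNAJB9 stood at 512 to 702 in OVCAR3 and at 856 to 1244 in COV318. HSP90B1 and HERPUD1 were likewise higher in every COV318 library than in every OVCAR3 library. The share of all genes with such a separation was not counted. TRIB3 had 5.32, ERN1 2.76, EIF2AK3 -1.98 and CALR -3.68 in bulk, and DDIT3 -2.09 and ERO1B -2.19 in OCSC. The bulk values rest on the OVCAR3-CTR bulk library described above. In OCSC TRIB3 stood at 484 normalized counts in OVCAR3-CTR and 621 in COV318-CTR, and ERN1 at 137 and 193. EIF2AK3 and CALR were lower in OVCAR3-CTR in OCSC as well.

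Conditions were also tested within blocks in edgeR's quasi-likelihood fits over all 8 libraries, in which cell populations or cultures stand in for replicates. In OCSC against bulk over the 4 populations, which differ in line and MGP state, 0 of the 10 genes and 0% of 18377 genes passed an adjusted p of 0.05. At an unadjusted p under 0.05 there were 1370 genes, and HERPUD1 was 1 of them. Its log2FC was -0.52, with an adjusted p of 0.655 by edgeR. In OVCAR3-MGPKO against CTR over both cultures, 0 of the 10 passed, where 0.0435% of all genes did and 1186 genes, none of the 10, had an unadjusted p under 0.05.

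In COV318-MGP against CTR over both cultures, 3 of the 10 passed, where 38.1% of all genes did. They were SDF2L1 (log2FC 2.05, adjusted p = 0.0142 by edgeR), HSPA5 (1.40, adjusted p = 0.0159) and MANF (0.82, adjusted p = 0.0457), each higher in 2 of 2 cultures. Bulk and OCSC of 1 engineered line are not separate lines or clones, so these p-values do not cover the differences in markers given above.

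Outside the list, 13065 genes averaged 50 or more normalized counts. The 5 whose profile over the 8 libraries was nearest to the mean of the 10, by root mean square distance of centred log2 levels, were SUV39H1 (0.10), LANCL1 (0.10), NUP93 (0.11), DCP2 (0.13) and ERO1A (0.13). ERO1A, an oxidase that drives disulfide formation in the ER, stood at 1274 normalized counts in OVCAR3-CTR bulk and 3058 in COV318-MGP OCSC. The other 4 are a histone methyltransferase, a lanthionine synthetase-like protein, a nuclear pore protein and an mRNA decapping enzyme.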

How the data were processed

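RNA was sequenced as paired 50-nucleotide reads on a HiSeq2000 with a TruSeq kit. The paper names poly-A enriched, ribosomal-RNA-depleted and capture-based TruSeq libraries, and does not say which kind each library was. Whether counting used the strand, and the annotation, are not given in the sources used here. The authors aligned reads to hg38 with STAR (2.7.5c in the submitters' processing notes) and deposited raw counts per gene. They likewise deposited a normalized signal, each count divided by DESeq2's median-of-ratios size factor.

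Size factors were recomputed over 15518 genes above 0 in every library and gave the deposited normalized values within 4.97e-05. A gene was compared when at least 1 library of the pair had more than 3 counts, which is 0.0802 to 0.244 CPM. Intervals and this floor cover counting error only. The 10 genes and all lists were chosen with earlier results of these data known. Named genes were the 10 members, MGP, ATF4, DDIT3, ATF3, PPP1R15A, TRIB3, CHAC1, ASNS, ERN1, EIF2AK3, ATF6, the 3 largest log2FC in size of each pathway list per comparison with at least 50 normalized counts, and the 5 genes nearest in profile. CALR, ERO1B, PDIA6, DNAJB1 and SLC38A2 also appear where that rule names them or for their promoter element; NEFL, KRT7, KRT8, KRT18, PAX8 and DPPA4 come from the marker lists, and HSP90B2P and the neighbours of HYOU1 were named after their values were seen. Some genes that this rule names are withheld and not reported here.

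Gene positions and merged exon lengths came from GENCODE 44. Alternatives were TMM factors, CPM, size factors within each pair, the deposited values, pseudocounts of 0.5 and 10, a minimum of 50 counts, no filter, and log2FC thresholds of 0.5 and 1.5. On simulated counts with the real means and counting error only, each of the 10 comparisons recovered 200 of 200 changed genes. These changes were set well past the fold in well-counted genes, so their recovery checks the calculation only. Spread between cultures was not simulated. Tools were Python 3.11.15, numpy 2.4.6, pandas 2.3.3, scipy 1.17.1, matplotlib 3.10.9, R 4.3.3 and edgeR 4.0.16. After the data were seen, 3 edgeR quasi-likelihood comparisons over all 8 libraries were added on the counts (filterByExpr, TMM, Benjamini-Hochberg over 18377 genes). OCSC against bulk had the cell population as block (3 residual degrees of freedom), and the MGP comparisons had line and culture as block (2).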

Additional observations from a re-analysis of the deposited data

Results flagged for a closer look

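In 3 cases the same contrast had opposite directions in both settings, with counting intervals on either side of no change and one value past the fold. These differences were not tested. SDF2L1 had a log2FC of 1.55 for OVCAR3-MGPKO over CTR in bulk and -0.37 in OCSC, a difference of 1.92. CRELD2 had 1.42 and -0.66, a difference of 2.08. Both bulk values use the OVCAR3-CTR bulk library, in which SDF2L1 (156 normalized counts) and CRELD2 (177) were below the other 3 OVCAR3 libraries. HSPA5 had a log2FC of 1.02 for OCSC over bulk in COV318-MGP and -0.29 in COV318-CTR, a difference of 1.31. The COV318-MGP value was under the fold with CPM (0.81), TMM factors (0.90) and size factors from the 2 libraries alone (0.99).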

How the results depend on the processing

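With 1 library per condition no replicate could be left out of a ratio. The 3 edgeR fits with the cell population or culture as block were chosen after seeing the data, and called 0 of the 10 genes for OCSC against bulk, 0 for OVCAR3-MGPKO and 3 for COV318-MGP. Of 200 counts of the 10 genes past the fold recomputed under the alternatives, 178 stayed within 1.5 times of the reported count. These include counts of 0 that stayed 0. The deposited values, both pseudocounts, the minimum of 50 counts and no filter moved no gene across the fold. The 178 is therefore a weak check, and the scalings and thresholds are given one by one. With TMM factors, and with size factors from the pair alone, 0 genes were higher in COV318-MGP OCSC over bulk and 1 was lower in OVCAR3-CTR against COV318-CTR OCSC. With CPM 0 were higher in COV318-MGP OCSC over bulk and 3 in COV318-MGP against CTR bulk and in OVCAR3-MGPKO against CTR bulk. At a threshold of 1.5, 1 was higher in OVCAR3-MGPKO bulk, 0 lower in OVCAR3-CTR OCSC over bulk, 0 higher in COV318-MGP OCSC over bulk and 1 lower in OVCAR3-CTR against COV318-CTR OCSC. At 0.5, the counts higher and lower were 5 and 1 in OVCAR3-MGPKO bulk, 4 and 1 in COV318-MGP bulk and 5 and 2 in OVCAR3-CTR OCSC over bulk. At 0.5, 5 were higher in COV318-MGP OCSC, 2 lower in OVCAR3-MGPKO OCSC, 4 lower in COV318-CTR OCSC over bulk, 2 lower in COV318-MGP OCSC over bulk, and, between control lines, 7 lower in bulk and 2 higher in OCSC. These follow from the threshold itself, and no share of all genes at 0.5 or 1.5 is set beside them. CPM moved the median of all genes by -0.21 to 0.29 and TMM by -0.12 to 0.10. The sign of 8 of 100 log2FC values changed with CPM, 4 with TMM and 3 with pair factors, all of which were at most 0.23 in size, and no value past the fold changed sign. The median of the 10 genes changed sign only between control lines in OCSC, to -0.19 with CPM and -0.03 with a minimum of 50 counts. HYOU1 had 26 to 107 counts, and its interval spanned no change in every comparison except OCSC over bulk in OVCAR3-CTR (-0.77, interval -1.40 to -0.17).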
